A study of Rattus norvegicus with 2 samples.

Results

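Schlafen genes encode a mammalian family of growth regulators, and here they are the transcripts whose gene name begins with Slfn in a table of RNA levels from H9c2 cells. The family comprised 5 of the table's 32767 transcripts and 4 of its 16783 gene symbols. These were Slfn2, Slfn3 and Slfn13 on chromosome 10 and the schlafen-like gene Slfnl1 on chromosome 5. H9c2 is a line of myoblast-like cells derived from embryonic rat heart, of strain BD1X according to the labels. The cells of one library received an empty vector and those of the other a plasmid for Cacnb4, the gene of an auxiliary (beta4) subunit of the Cav channels for calcium, and the cells were otherwise labelled alike. Each group was a single library, so no value below has a replicate, no spread between cultures is known, and no test of the conditions could be made. Levels are FPKM, fragments scaled to the length of a transcript and to the depth of its library, which allows levels of different genes to be set side by side.

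Schlafen proteins are known from mouse T cells, where Slfn1 slows growth when it is raised and where loss of Slfn2 costs cells their quiescence. Several members are induced by type I interferon in mouse and human cells, and members with a conserved N-terminal core cut transfer RNA, which lowers protein synthesis and hampers viruses. Rat Slfn3 has been studied as a differentiation factor of the intestinal lining, and the nuclease core of rat Slfn13 cleaves transfer and ribosomal RNA. Slfnl1 carries a related domain, and its role is little described.

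The names in the table are older than the current RefSeq annotation of assembly GRCr8, and this bears on which gene each value belongs to. Slfn2 and Slfnl1 carry the same symbol in both. Slfn13 is a synonym of the RefSeq gene Slfn9. Slfn3 is both the symbol of one RefSeq gene and a synonym of its neighbour Slfn4. The table places LOC688925 on the same locus as its Slfn3, and the RefSeq gene with the ID in that name, Gsta4l1, lies inside Slfn4 and not inside the gene now called Slfn3. The locus of Slfn3 in the table spans 23420 bases, beside 23540 bases for RefSeq Slfn4 and 41860 bases for RefSeq Slfn3. The values printed under Slfn3 were therefore set beside the promoter of RefSeq Slfn4, a match inferred from these features and not checked against an rn4 annotation. RefSeq lists 8 Schlafen symbols on chromosome 10. The names Slfn1, Slfn5, Slfn14 and Slfn4l1 do not occur among the deposited gene names, and levels under other names were not analysed here. The level of the gene now called Slfn3 was not analysed either. Near copies within the cluster can share reads, so that single values of its members are uncertain.

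Promoter windows of the 3 chromosome 10 members are shown because these members were higher together in the Cacnb4 library. Each runs from 250 bases before to 50 bases after a RefSeq start on build GRCr8, 5′ to 3′ on the gene's own strand. The Slfn2 window is chr10:68450611-68450910 on the plus strand, the Slfn4 window, for the table's Slfn3, is chr10:68491970-68492269 on the plus strand, and the Slfn9 window, for the table's Slfn13, is chr10:68420013-68420312 on the minus strand. Capitals mark the matches to the motifs described next.
Slfn2: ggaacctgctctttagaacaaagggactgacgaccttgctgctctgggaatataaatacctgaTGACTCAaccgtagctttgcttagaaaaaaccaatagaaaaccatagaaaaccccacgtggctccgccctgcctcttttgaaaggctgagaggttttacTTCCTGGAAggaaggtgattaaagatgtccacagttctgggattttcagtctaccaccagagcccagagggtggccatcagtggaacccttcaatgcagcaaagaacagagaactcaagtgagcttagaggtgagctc
Slfn4: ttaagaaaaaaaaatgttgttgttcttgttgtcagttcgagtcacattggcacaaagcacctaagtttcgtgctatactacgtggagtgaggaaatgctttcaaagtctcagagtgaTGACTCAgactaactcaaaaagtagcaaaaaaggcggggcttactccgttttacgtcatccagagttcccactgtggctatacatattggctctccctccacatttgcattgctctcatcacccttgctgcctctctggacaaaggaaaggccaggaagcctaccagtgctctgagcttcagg
Slfn9: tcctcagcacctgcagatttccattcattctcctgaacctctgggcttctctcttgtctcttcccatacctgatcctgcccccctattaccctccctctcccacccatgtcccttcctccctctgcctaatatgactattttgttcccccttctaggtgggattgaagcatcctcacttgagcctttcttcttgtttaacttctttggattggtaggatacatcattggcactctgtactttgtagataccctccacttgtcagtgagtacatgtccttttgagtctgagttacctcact

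Both strands were searched for 3 motifs, and none of the 3 overlapped another in these windows. The letters TGACTCA, bound by AP-1 factors, occurred 187 bases before the start of Slfn2 and 133 bases before the start of Slfn4, and 4.63% of all 33469 promoter windows hold them. The letters TTCNNNGAA, the core of sites bound by Stat factors, occurred 88 bases before the start of Slfn2, and 8.87% of all windows hold them. The Slfn4 and Slfn9 windows have 0 matches to this second motif. Of the 3 windows of the gene RefSeq now calls Slfn3, 2 that overlap each other hold TTCNNNGAA, 225 and 210 bases before their starts, and 0 hold TGACTCA, so the motifs beside the table's Slfn3 depend on that match of names. The letters GAAANNGAAA, the core of sites bound by interferon regulatory factors, had 0 matches in the Slfn2, Slfn4 and Slfn9 windows and occur in 3.92% of all windows. The Slfn9 window matched none of the 3 motifs. TGACTCA was added to the search after the sequences had been seen.

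The 3 members on chromosome 10 were each higher in the Cacnb4 library, and Slfnl1 was lower. The lowest of the 3 with empty vector, Slfn3, stood at 2.63 FPKM with empty vector and at 12.9 FPKM with Cacnb4. This is 4.92 times as much, the highest ratio in the family. Slfn2, the member with the highest level in both libraries, stood at 19.1 FPKM with empty vector and at 43.7 FPKM with Cacnb4, 2.28 times as much. Slfn13 stood at 13.8 FPKM with empty vector and at 21.3 FPKM with Cacnb4, 1.54 times as much. Slfnl1 was under 1 FPKM in both libraries, at 0.464 FPKM with empty vector and 0.352 FPKM with Cacnb4.

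**Figure D1:**
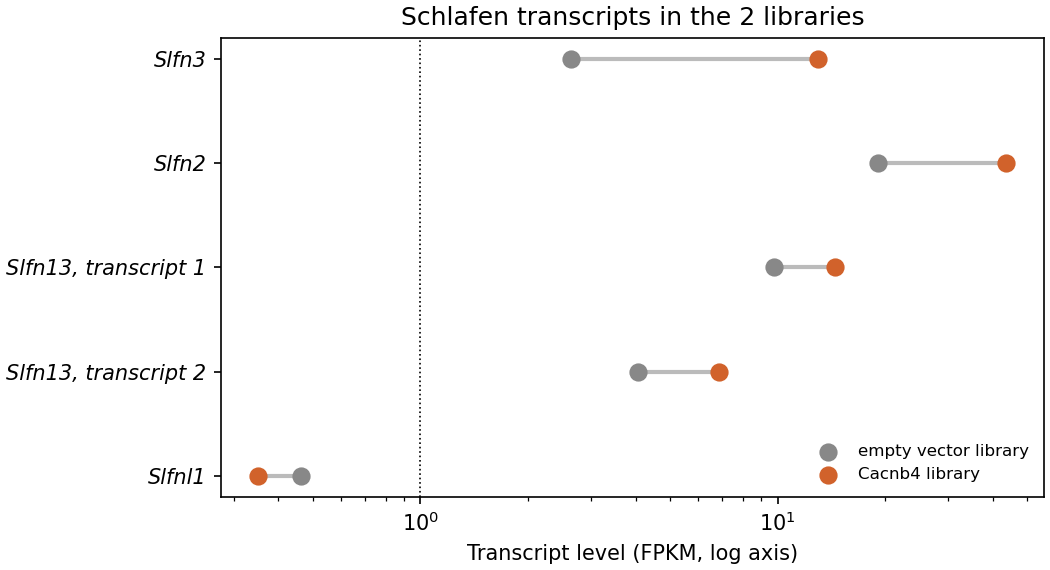
Level of each Schlafen transcript in the 2 libraries, in FPKM on a log axis; grey points are the empty vector library, orange points the Cacnb4 library, and the dotted line is 1 FPKM. Slfn3 moves from 2.63 to 12.9 FPKM and Slfn2 from 19.1 to 43.7 FPKM, the Slfn13 transcripts move less, and Slfnl1 stays left of the line.

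Symbols that reached 1 FPKM in either library count as measured, which took in 3 of the 4 Schlafen symbols and 9539 symbols in all. On the scale of log2(FPKM + 1), the difference between libraries, here called the log2 ratio, was 1.94 for Slfn3, 1.15 for Slfn2 and 0.59 for Slfn13. For Slfnl1, which was not measured by this rule, it was -0.12. At least 2-fold higher on this scale were 2 of the 3 measured members, Slfn3 and Slfn2, beside 1.94% of all measured symbols. At least 2-fold lower were 0 of them, beside 1.08% of all measured symbols. All 3 had a log2 ratio above 0, as did 44.6% of all measured symbols. The median log2 ratio was 1.15 over the 3 members and -0.03 over all 9539 symbols, and with 3 members that median is the value of Slfn2. Slfn3 had rank 88 by log2 ratio among all measured symbols, Slfn2 rank 161 and Slfn13 rank 383.

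**Figure D2:**
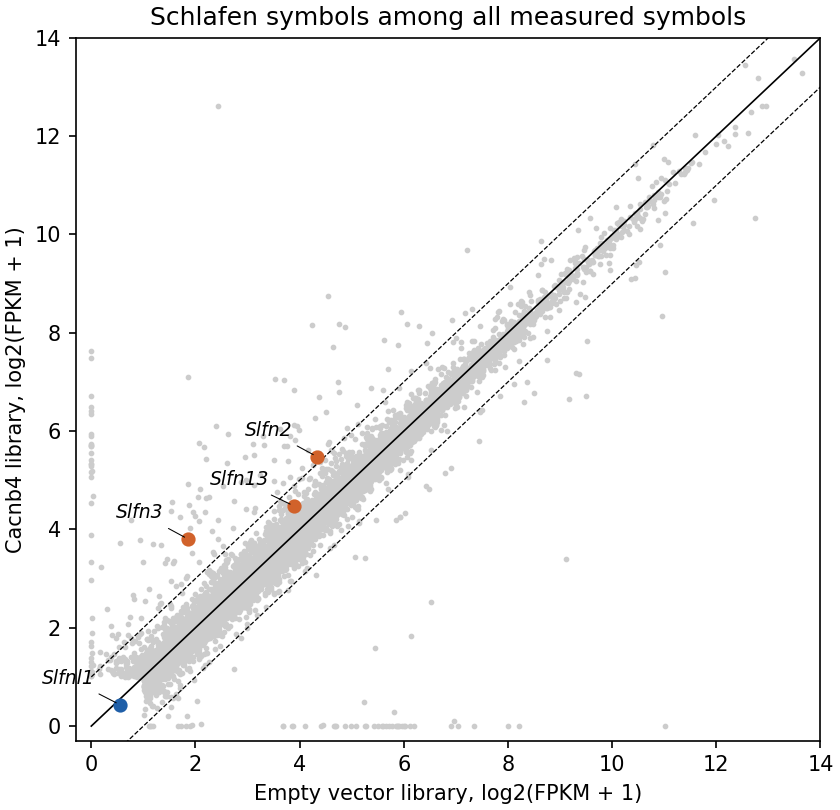
Each point is a gene symbol, with its level in the empty vector library on the horizontal and in the Cacnb4 library on the vertical axis, both as log2(FPKM + 1); the solid line marks equal levels, dashed lines mark 2-fold, orange points are measured Schlafen symbols and the blue point is Slfnl1. Slfn3 and Slfn2 lie above the upper dashed line, at log2 ratios of 1.94 and 1.15, and Slfn13 lies between the lines at 0.59.

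The order of the levels was the same in both libraries, with Slfn2 first, Slfn13 next, then Slfn3 and then Slfnl1. The distances between them differed. The level of Slfn2 was 7.27 times that of Slfn3 with empty vector and 3.37 times that of Slfn3 with Cacnb4. Slfn13 stood at 5.25 times the level of Slfn3 with empty vector and at 1.64 times with Cacnb4. Between Slfn2 and Slfn13 the ratio of levels was 1.39 with empty vector and 2.05 with Cacnb4. Whether any of these neighbours differ beyond the spread between cultures cannot be read from single libraries.

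Summed over the 4 symbols, Schlafen RNA came to 36.1 FPKM with empty vector and 78.2 FPKM with Cacnb4, a ratio of 2.17. Slfn2 supplied 58.1% of the difference in FPKM, Slfn3 24.4% and Slfn13 17.7%. The share of Slfn3 in the summed level was 7.30% with empty vector and 16.5% with Cacnb4. That of Slfn13 was 38.3% with empty vector and 27.2% with Cacnb4, and that of Slfn2 was 53.1% and 55.8%. Among all measured symbols ordered by level, Slfn3 had rank 8392 in the empty vector library and rank 4942 in the Cacnb4 library. Slfn2 had ranks 3862 and 2019, and Slfn13 had ranks 4750 and 3561. In a culture measured as a whole, more cells that use a gene and more RNA of it per cell cannot be told apart.

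Slfn13 was the only member of the 4 with more than 1 transcript in the table. The more abundant of its 2 transcripts stood at 9.76 FPKM with empty vector and 14.4 FPKM with Cacnb4, 1.48 times as much. The other stood at 4.05 FPKM with empty vector and 6.86 FPKM with Cacnb4, 1.69 times as much. The first transcript held 70.7% of the gene's summed level with empty vector and 67.8% with Cacnb4, so the greater part came from the same transcript in both libraries.

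The authors' deposited table holds a test of each transcript, which compares the reads of these 2 libraries and not the conditions. In the authors' deposited table, Slfn3 had a log2 fold change of 2.30 with a q-value of 1.20e-09, and Slfn2 one of 1.19 with a q-value of 0.0173. Both carried the mark for significance, which the authors' deposited table gives to 0.489% of named transcripts as higher in the Cacnb4 library. By p-value in the authors' deposited table, Slfn3 had rank 40 and Slfn2 rank 172 of all transcripts. The authors' deposited table gave the 2 transcripts of Slfn13 log2 fold changes of 0.56 and 0.76, with q-values of 0.912 and 0.970, and Slfnl1 one of -0.40 with a q-value of 1. Of the 221 transcripts marked as higher in the authors' deposited table, 3 had a smaller fold change than Slfn2, and 143 had a larger one than Slfn3.

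On rn4, the build of the table, Slfn13 lies from 71192176 to 71205605, Slfn2 from 71236407 to 71242745 and Slfn3 from 71277764 to 71301183. Within 200 kb on either side of this stretch, or inside it, lie 10 other named symbols. As sums per symbol, 0 of these were 2-fold higher, beside 1.94% of all measured symbols, and 0 were 2-fold lower, beside 1.08%, shares at which a call among 10 symbols is seldom met. Their log2 ratios ran from -0.43 to 0.19, with a median of -0.06. Of the 10 symbols, 9 were measured. The exception, Fndc8, gave the highest of these ratios, at 0.0397 FPKM with empty vector and 0.184 FPKM with Cacnb4. Unc45b, a chaperone of myosin folding and the nearest named gene on the Slfn13 side at 35.7 kb, stood at 6.37 FPKM with empty vector and 5.44 FPKM with Cacnb4. Ap2b1, a subunit of the clathrin adaptor AP-2, stood at 34.2 FPKM with empty vector and 31.9 FPKM with Cacnb4. LOC688925, on the same locus as Slfn3, stood at 1.03 FPKM with empty vector and 1.01 FPKM with Cacnb4. The labels do not say whether counting used the strand, so reads of Slfn3 and LOC688925 may not have been told apart. One of the 2 transcripts of Nle1, a ribosome assembly factor, stood at 7.72 FPKM with empty vector and 2.60 FPKM with Cacnb4. Its q-value in the authors' deposited table was 0.927.

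The stretch also held 8 transcripts with no gene name, of which 1 was past 2-fold higher with Cacnb4, beside 13.0% of all unnamed transcripts, and 0 were past 2-fold lower, beside 7.39%. Between Slfn13 and Slfn2 lay 4 of the 8, within 0.601 to 2.68 kb of Slfn13, and all 4 were higher in the Cacnb4 library, as were 55.3% of all unnamed transcripts. Lying this close together, the 4 may be pieces of 1 transcript and cannot be counted as separate members. They lie on the side where RefSeq puts the start of Slfn9. Their ratios ran from 1.44 to 2.55 times, around the 1.54 times of Slfn13. The longest, of 836 bases, stood at 3.87 FPKM with empty vector and 5.58 FPKM with Cacnb4. The one past 2-fold, of 304 bases, stood at 3.20 FPKM with empty vector and 8.17 FPKM with Cacnb4. Its q-value of 0.870 in the authors' deposited table was the lowest of the 4. Beyond Slfn3 lay 3 unnamed transcripts, of which 2 were lower with Cacnb4 and 1 was near equal. At 8.43 kb from Slfn3 the level was 8.77 FPKM with empty vector and 5.99 FPKM with Cacnb4, at 41.5 kb it was 4.60 and 1.94 FPKM, and at 74.7 kb it was 6.93 and 7.08 FPKM. The last of the 8, 105 kb before Slfn13, stood at 104 FPKM with empty vector and 74.4 FPKM with Cacnb4.

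**Figure D3:**
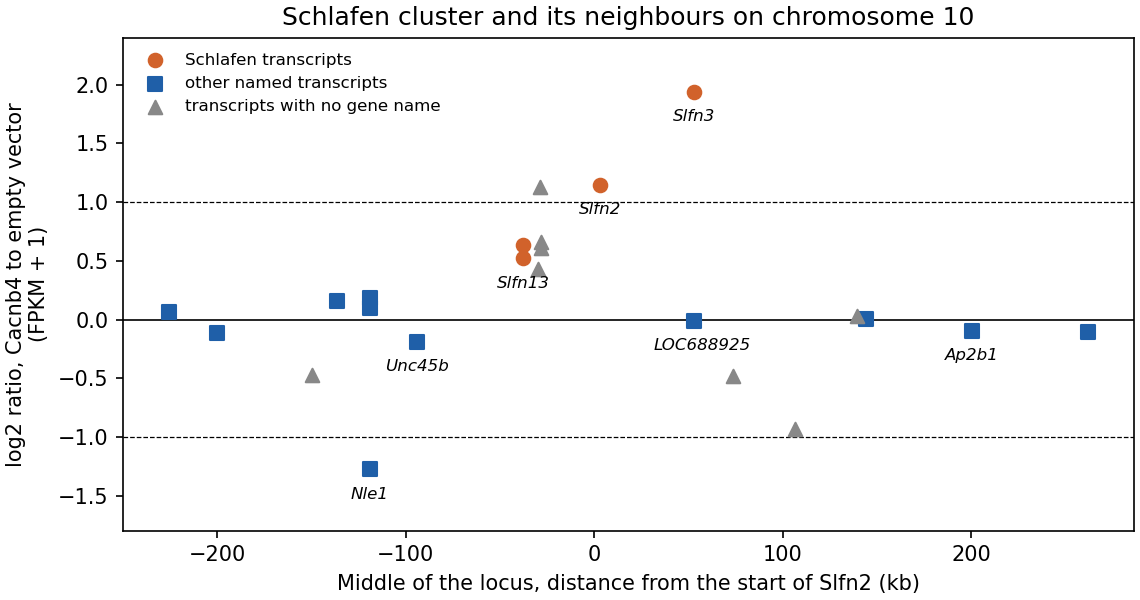
Log2 ratio of each transcript, Cacnb4 to empty vector library on the FPKM + 1 scale, against the distance in kb of the middle of its locus from the start of Slfn2; orange circles are Schlafen transcripts, blue squares other named transcripts, grey triangles transcripts with no name, and dashed lines mark 2-fold. The Schlafen transcripts and the 4 unnamed ones beside Slfn13 lie above 0, Slfn3 highest at 1.94, while the summed named neighbours lie between -0.43 and 0.19; the low square at Nle1 is one of its 2 transcripts.

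Slfnl1 lies apart from the others on chromosome 5, from 141129297 to 141133769 on rn4. Its neighbour Scmh1, a Polycomb group gene 1.96 kb away, stood at 8.10 FPKM with empty vector and 8.04 FPKM with Cacnb4. Ctps, which makes CTP and lies 2.92 kb away on the other side, stood at 41.4 and 43.6 FPKM. Of the 3 named symbols within 200 kb of Slfnl1, 0 were 2-fold higher, beside 1.94% of all measured symbols. At least 2-fold lower were 0 of them, beside 1.08%, and shares this low seldom give a call among 3 symbols. The third of them, Cited4, was not measured, at 0.674 FPKM with empty vector and 0.346 FPKM with Cacnb4.

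The relay from the interferon receptor to Stat factors, which induces Schlafen genes in mouse and human cells, was higher for some of its factors, while its receptor and kinases stayed near equal. Past 2-fold higher were 5 of its 11 measured members, beside 1.94% of all measured symbols, and 0 were at least 2-fold lower, beside 1.08%, with a median log2 ratio of 0.90. Usp18, which removes Isg15 and dampens the receptor, stood at 23.9 FPKM with empty vector and 210 FPKM with Cacnb4. Irf7, Stat2, Socs1 and Ifnb1 were the other members past 2-fold, with log2 ratios of 2.48, 2.27, 1.68 and 1.47. Ifnb1, at 0.671 FPKM with empty vector and 3.64 FPKM with Cacnb4, reached the minimum of 1 FPKM only in the library in which it is high. Of the 5, the authors' deposited table marked Usp18, Irf7 and Stat2, and it gave q-values of 0.248 for Socs1 and 0.357 for Ifnb1. Slfn3 had a log2 ratio between those of Socs1 and Stat2. Irf1, a transcription factor induced by interferon, stood at 17.1 FPKM with empty vector and 31.6 FPKM with Cacnb4, under 2-fold, with a q-value of 0.251 in the authors' deposited table. The receptor subunit Ifnar1 stood at 16.1 FPKM in both libraries, and the receptor-bound kinases Jak1 and Tyk2 had log2 ratios of 0.08 and -0.16.

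Growth control from cyclin D to E2F, the part of the cell cycle at which mouse Slfn1 has been placed through cyclin D1, held 18 measured members. Of these, 0 were 2-fold higher, beside 1.94% of all measured symbols, and 0 were 2-fold lower, beside 1.08%. The median log2 ratio was -0.07, with 10 members below 0 beside 55.4% of all measured symbols. Ccnd1, cyclin D1 itself, stood at 105 FPKM with empty vector and 84.5 FPKM with Cacnb4. Ccnd2, a further cyclin D gene and one of 8 members above 0, stood at 35.7 and 52.3 FPKM. Ccne1, cyclin E1, had the largest absolute log2 ratio of the list, at -0.76, and Cdkn2b, an inhibitor of the cyclin D kinases, the next, at 0.69. Cdkn2b stood at 22.4 FPKM with empty vector and 36.7 FPKM with Cacnb4. E2f1 stood at 13.5 and 9.13 FPKM, and the proliferation marker Mki67 at 33.0 and 29.8 FPKM. None of these genes was marked in the authors' deposited table, beside 0.489% of named transcripts marked as higher, and their lowest q-value was 0.422. At shares this low, the absence of calls among 18 symbols does not set the list apart from all measured symbols.

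Genes of RNA cleavage and its control, the activity described for Slfn13, held 7 measured members, of which 1 was 2-fold higher, beside 1.94% of all measured symbols, and 0 were 2-fold lower, beside 1.08%, with a median log2 ratio of 0.18. The one was Oas1a, an oligoadenylate synthetase that senses double-stranded RNA, at 0.470 FPKM with empty vector and 12.2 FPKM with Cacnb4. It reached the minimum of 1 FPKM only in the Cacnb4 library, so its place among the measured members rests on the library in which it is high. Ern1, the stress sensor with a nuclease domain, had the next largest log2 ratio at 0.46, and Elac2, which trims the ends of transfer RNA precursors, stood at 10.1 and 13.5 FPKM. The kinase gene Eif2ak2 is listed at 0 in both libraries, which may be a failed estimate.

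Genes linked to stalled replication forks, where human SLFN11 acts, were mostly lower by a small amount. Of 9 measured members, 8 had a log2 ratio below 0, beside 55.4% of all measured symbols, and the median was -0.35. At least 2-fold lower were 0 of them, beside 1.08% of all measured symbols, and at least 2-fold higher were 0, beside 1.94%. Among 9 symbols, shares this low seldom give a call. Rpa1, the large subunit of the complex that coats single-stranded DNA, stood at 25.1 FPKM with empty vector and 15.8 FPKM with Cacnb4. Its partner subunit Rpa2 stood at 18.7 and 13.1 FPKM. Ddb1, the one member above 0, stood at 164 and 177 FPKM. In the authors' deposited table none of the 9 was marked, beside 0.489% of named transcripts marked as higher. Of the 99 named transcripts marked there, 94 were higher in the Cacnb4 library, so marks on lower genes were rarer still. Whether these values relate to the Schlafen levels was not tested.

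**Figure D4:**
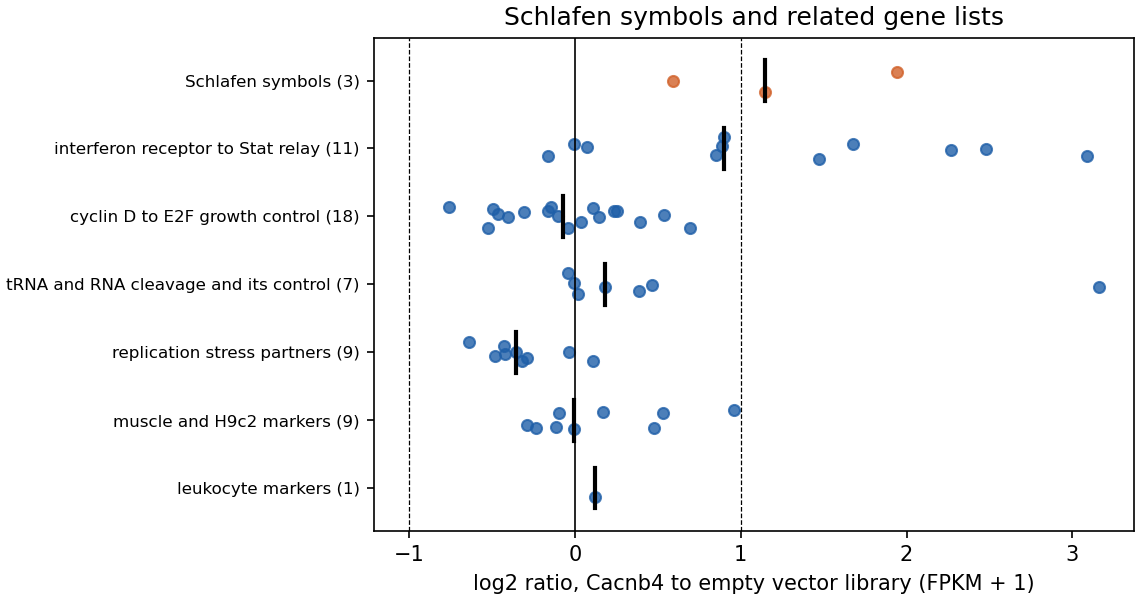
Log2 ratio, Cacnb4 to empty vector library on the FPKM + 1 scale, of each measured gene by list, with the number of genes in brackets; orange points are the Schlafen symbols, blue points genes of the other lists, black bars medians and dashed lines 2-fold. The Schlafen median of 1.15 and the interferon relay median of 0.90 lie to the right of the other lists, whose medians run from -0.35 to 0.18.

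By level in the 2 libraries, the symbols most like Slfn2 were Nampt, Plekha7 and Trim26, taken as the nearest by Euclidean distance on log2(FPKM + 1) over these 2 values. Nampt, an enzyme of NAD synthesis, stood at 18.9 FPKM with empty vector and 45.6 FPKM with Cacnb4, at a distance of 0.065. Plekha7, a junction protein, stood at 19.7 and 46.3 FPKM, and the ubiquitin ligase Trim26 at 19.9 and 40.3 FPKM. Of these 3, the authors' deposited table marked Plekha7, with a q-value of 0.0308. With 2 values per gene, likeness of this kind describes 1 level and 1 ratio only.

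Muscle markers were measured in both libraries and most leukocyte markers in neither. The empty vector library had 13569897 mappable reads and the Cacnb4 library 14939784, and Cacnb4 itself stood at 4.37 and 6266 FPKM. Of 9 measured muscle markers, 0 were 2-fold higher, beside 1.94% of all measured symbols, and 0 were 2-fold lower, beside 1.08%. The log2 ratio was above 0 for 4 of the 9 and below 0 for 5, with a median of -0.003. Myod1 stood at 89.8 and 101 FPKM and Myog at 51.3 and 71.9 FPKM. Lower with Cacnb4 were, among others, Actc1 at 225 and 192 FPKM and Acta1 at 387 and 363 FPKM. Myh3, an embryonic myosin, stood at 1.86 and 4.57 FPKM, 2.46 times as much, and came under the limit through the added 1 FPKM, with a log2 ratio of 0.96. It was marked in the authors' deposited table, with a q-value of 0.0310. Since Schlafen genes are best known from leukocytes, 13 leukocyte markers were examined. Of these, 1 was measured, Cd14, and the sum over all 13 was 11.2 FPKM with empty vector and 11.8 FPKM with Cacnb4. Most of each sum came from Cd14, at 8.76 FPKM with empty vector and 9.61 FPKM with Cacnb4. The pan-leukocyte gene Ptprc stood at 0.0191 and 0.0846 FPKM. Cd3g and Lyz2, at 0.577 and 0.504 FPKM with empty vector, are listed at 0 in the Cacnb4 library.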

How the data were processed

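RNA was measured in 2 H9c2 libraries, 1 per group, grouped by the sample titles. The deposited read counts per library follow removal of the 3' adaptor and of reads under 10 bases, per the file's footnote. Per the submitters' processing notes, TopHat 1.4.1 and the genome build rn4 were used. The estimator of levels is not named in these sources. The header of the deposited expression table names no unit, and its values were read as the authors' FPKM from their layout. Whole reads were not recovered from them, so the depth behind a single value is unknown and no counting interval is given. The p-values and q-values, the log2 fold changes and the mark, which stands at q below 0.05, are the authors' deposited values. Coordinates are printed as deposited, and whether the first base is 0 or 1 is not stated.

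FPKM was summed per gene symbol, leaving out 13533 transcripts with no name and 17 named in the form of a date. The log2 ratio was taken after adding 1 FPKM, which understates differences of low genes, and 2-fold on that scale was the limit for calling a symbol higher or lower. This limit was tried on simulated data with an assumed spread. The changes set there were larger than 2-fold and only in genes at 5 FPKM or more. The trial gives no error rate for these libraries. Named were all Schlafen rows, up to 6 members past 2-fold or else the 2 with the largest log2 ratio in each list, transcripts within 200 kb, and the 3 symbols most like Slfn2. Some genes that this rule names are not reported here, and other genes named in the lists were chosen after their values were seen. The members and lists were chosen with earlier results of these data known. RefSeq tables of GRCr8 gave names and promoter sequences, and 7 of the 9 RefSeq Schlafen symbols had a window. The alternative settings were pseudocounts of 0.1 and 5 FPKM, a minimum of 5 FPKM or none, the most abundant transcript in place of the sum, a rescaled Cacnb4 library, and stricter limits on the authors' calls. Computation used Python 3.11.15, numpy 2.4.6, pandas 2.3.3 and matplotlib 3.10.9.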

Additional observations from a re-analysis of the deposited data

How the results depend on the processing

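No paired analysis was possible because each group held 1 library, and for the same reason no replicate could be left out. Slfn3 and Slfn2 stayed at least 2-fold higher and Slfn13 stayed under 2-fold under each of the 6 alternatives for the levels. Not all of these could have altered a call. A changed minimum leaves the ratio of a symbol as it is. Slfn2 and Slfn3 have 1 transcript each, so the choice of transcript leaves theirs as it is too. For Slfn2 and Slfn3, only the pseudocounts and the rescaling could change the ratio. The log2 ratio ranged from 1.23 to 2.25 for Slfn3, from 1.01 to 1.19 for Slfn2 and from 0.48 to 0.62 for Slfn13. The lowest value of each came with a pseudocount of 5 FPKM, at which Slfn2 was only just past 2-fold. With no minimum, which adds Slfnl1, the median log2 ratio of the family was 0.87, under 2-fold, in place of 1.15. With a q below 0.01 in the authors' deposited table, 1 Schlafen transcript, that of Slfn3, was left in place of 2. Over all measured symbols, the count 2-fold higher ranged from 125 to 244 and the count 2-fold lower from 79 to 148. Rescaling divided the Cacnb4 library by 0.976. Precision is limited by the single library per group.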
